A study of Mus musculus with 60 samples.

Results

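The H4K8ac peaks of exercised mice came as 3 lists: a long list from simultaneous isolation (SIT) and 2 short lists from separate isolation, and what the long list adds to the short ones is described here. The SIT list held 38136 peaks, the left separate list 12168 and the right separate list 13715, together 64019 of the 256375 peaks in the 12 lists of the study. Left and right separate peaks were joined where they overlapped, which gave 19832 separate regions covering 41.5 Mb. A SIT peak was called added if it shared no base with a separate region, and shared if it shared at least 1 bp. By this rule 23396 SIT peaks (61.3%, 95% Wilson interval 60.9 to 61.8) were added and 14740 were shared.

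All mice were male Emx1-NuTRAP mice, which carry Emx1-Cre and the NuTRAP cassette, so that cells with a history of Emx1 expression, mostly excitatory neurons of the hippocampus, have tagged nuclei and ribosomes. Cre marks every descendant of an Emx1-expressing progenitor, so some glia can carry the tag as well. The exercised group had running wheels from postnatal day 21 to 41. The sedentary group, used below to look peaks up and for comparison of whole lists, had the same genotype and age without a wheel. In SIT, both hippocampi of a mouse went into 1 homogenate from which tagged nuclei and translating mRNA were both taken. In separate isolation, nuclei came from a single hippocampus, left or right, and the other hippocampus of that mouse was kept for RNA, so that no mouse gave nuclei to both separate lists. The labels give 4 SIT, 3 left and 3 right samples for this mark and condition. Per the methods, exercised H4K8ac libraries with a high false discovery rate were left out upstream, more of them and a larger part from separate isolation than from SIT. The lists name no sample, so how many left and how many right libraries remained cannot be read from them. The short lists may thus rest on fewer libraries than the SIT list, which bears on every added share below. Isolation therefore cannot be told apart from the amount of tissue, the mice and the number of libraries. Each list counts as 1 unit, with no replicate value, no signal height and no read depth given in the list, so no test was run and intervals cover counting error over peaks only.

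H4K8ac is an acetylated lysine in the tail of histone H4. Acetylation weakens the hold of the tail on DNA and is read by bromodomain proteins, and H4K8ac is found at active promoters and enhancers. In CUT&RUN, an antibody to the mark brings a nuclease to the chromatin, and the DNA cut free is sequenced. SEACR, run here with a numeric threshold of 0.01, then keeps the top fraction of that size among the blocks of signal. A region absent from a list can therefore still have had signal, and the width of a peak says how far its block of signal ran. In neurons, acetylation at immediate early genes and synaptic genes is associated with transcription after activity.

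Promoters of genes known in these cells show what added, shared and missing mean in sequence. The stretches run from 250 bases before to 50 bases after a start site in RefSeq (GRCm38.p6), 5′ to 3′ on the strand of the gene, with each CpG in capitals, since CpG-rich promoters are a common place for this mark. They were picked after their values were seen. Emx1 is the gene whose promoter drives Cre in these mice, Fosb is an immediate early transcription factor, and Dlg4 encodes the postsynaptic scaffold PSD-95. These 3 windows met a SIT peak and no separate peak.
Emx1: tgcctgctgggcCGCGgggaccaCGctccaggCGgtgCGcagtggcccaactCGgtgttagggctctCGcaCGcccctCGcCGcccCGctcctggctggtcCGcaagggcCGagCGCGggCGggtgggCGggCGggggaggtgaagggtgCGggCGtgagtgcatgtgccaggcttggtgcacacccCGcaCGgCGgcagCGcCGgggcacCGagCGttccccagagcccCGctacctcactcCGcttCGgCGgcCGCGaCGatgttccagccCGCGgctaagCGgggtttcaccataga
Fosb: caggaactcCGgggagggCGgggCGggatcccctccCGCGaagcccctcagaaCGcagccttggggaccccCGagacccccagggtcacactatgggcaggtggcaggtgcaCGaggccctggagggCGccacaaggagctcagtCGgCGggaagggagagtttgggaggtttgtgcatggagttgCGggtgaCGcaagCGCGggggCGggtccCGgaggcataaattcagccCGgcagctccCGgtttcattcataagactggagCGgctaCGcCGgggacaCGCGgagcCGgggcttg
Dlg4: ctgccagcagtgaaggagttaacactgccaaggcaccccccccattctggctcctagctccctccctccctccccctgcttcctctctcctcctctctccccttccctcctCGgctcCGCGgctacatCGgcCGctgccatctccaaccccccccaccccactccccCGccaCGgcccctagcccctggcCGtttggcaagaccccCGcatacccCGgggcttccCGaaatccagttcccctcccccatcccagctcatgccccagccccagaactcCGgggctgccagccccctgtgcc
The Emx1 window lies at chr6:85187681-85187980 on the plus strand and holds 37 CpG. A SIT peak of 4787 bp began inside it, at 85187919, and the nearest separate region was 2140 bp away. The Emx1 peak ran on into that region, so it counts as shared although SIT alone reached the start site, while the peaks at Fosb and Dlg4 are added. The Fosb window lies at chr7:19309996-19310295 on the minus strand with 25 CpG, inside a SIT peak of 1040 bp. The nearest separate region to Fosb was 16122 bp away. The Dlg4 window lies at chr11:70018355-70018654 on the plus strand with 12 CpG, and it was met by a SIT peak of 881 bp, with the nearest separate region 95189 bp away. These 3 windows thus range from a promoter with a separate peak close by to one with none in its neighbourhood.

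Neurod1 and Neurod6 encode transcription factors of the excitatory neuron lineage, and their windows were met in all 3 lists. Nrgn encodes neurogranin, a calmodulin-binding protein of excitatory neurons, and its window was met in the right separate list and not in SIT.
Neurod1: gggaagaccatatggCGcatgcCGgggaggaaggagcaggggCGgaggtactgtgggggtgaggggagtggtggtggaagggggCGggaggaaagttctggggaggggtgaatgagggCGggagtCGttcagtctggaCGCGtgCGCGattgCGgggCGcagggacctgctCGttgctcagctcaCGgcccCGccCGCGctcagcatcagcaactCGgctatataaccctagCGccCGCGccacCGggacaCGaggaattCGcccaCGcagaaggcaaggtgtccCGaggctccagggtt
Neurod6: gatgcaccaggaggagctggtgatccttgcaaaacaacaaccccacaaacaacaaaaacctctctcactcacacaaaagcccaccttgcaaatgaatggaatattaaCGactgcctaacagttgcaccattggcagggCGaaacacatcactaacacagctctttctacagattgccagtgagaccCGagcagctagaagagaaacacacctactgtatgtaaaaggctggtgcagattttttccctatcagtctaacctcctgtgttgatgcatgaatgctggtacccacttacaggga
Nrgn: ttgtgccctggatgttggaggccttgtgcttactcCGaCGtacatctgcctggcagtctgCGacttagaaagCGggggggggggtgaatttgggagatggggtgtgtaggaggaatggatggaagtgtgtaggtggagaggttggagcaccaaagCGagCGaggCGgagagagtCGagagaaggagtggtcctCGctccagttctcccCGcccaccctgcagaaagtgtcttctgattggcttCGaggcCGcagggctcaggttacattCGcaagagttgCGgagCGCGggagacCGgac
The Neurod1 window lies at chr2:79456587-79456886 on the minus strand with 26 CpG. The SIT peak over it was 12746 bp wide, the left peak 7677 bp and the right peak 1514 bp. The Neurod6 window lies at chr6:55681214-55681513 on the minus strand with 3 CpG, under a SIT peak of 9953 bp, a left peak of 4702 bp and a right peak of 969 bp. The authors' assignment gives the SIT peak at Neurod6 to Gm3279 and both separate peaks to Neurod6 itself, so a gene can change between lists while its region does not. The Nrgn window lies at chr9:37552696-37552995 on the minus strand with 17 CpG, and the nearest SIT peak was 605 bp from it.

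The lists as a whole differed in ways that touch every later value. SIT peaks covered 80.3 Mb, left peaks 25.8 Mb and right peaks 24.5 Mb. The left list held 43 peaks (0.353%) on chromosome 19 and 1 on X. The right list held 240 (1.75%) on chromosome 19 and 41 on X, and SIT 656 (1.72%) and 113. The sedentary left list had 1.83% of its peaks on chromosome 19. The left list thus nearly lacked both chromosomes, and the added share was highest there, at 84.1% of SIT peaks on X and 74.5% on chromosome 19. The left peaks of chromosome 19 ran from 5050461 to 58789764 and entries for X and a scaffold follow them, so the table does not break off there. Whether rows are missing within it was not tested, and absence from the left list of a gene on these chromosomes is to be read with that limit. The lowest share was 55.1% on chromosome 18. Leaving out chromosomes 19 and X gave an added share of 61.0%.

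**Figure D1:**
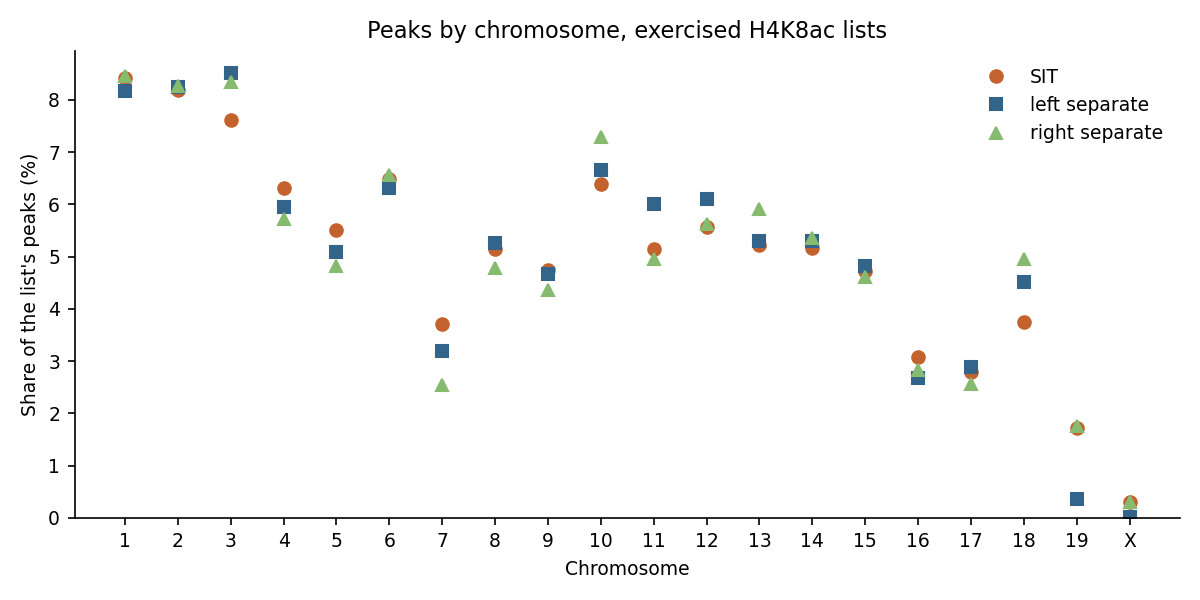
Each symbol gives the share of a list's peaks (vertical axis, percent) on 1 chromosome (horizontal axis) for the exercised SIT, left separate and right separate lists. The 3 lists lie close together on most chromosomes, and the left list falls to 0.353% on chromosome 19, where SIT has 1.72% and the right list 1.75%.

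The separate lists covered less and did not hold much in common. Of the left peaks 46.0% met a right peak, and of the right peaks 42.4% met a left peak. Each met the SIT list, which covers 80.3 Mb against 25.8 and 24.5 Mb, in 79.8% of left and 78.0% of right peaks, and the part of list length in this was not tested. Of the 5361 regions found in left and right, 94.6% were in SIT, against 68.1% of 6574 regions in the left list alone and 66.6% of 7897 in the right list alone. In all, 5021 separate regions (14811 of 19832 were in SIT) had no SIT peak. The SIT list therefore held most of what the separate lists shared, and it did not contain them whole.

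By bases, the addition had 2 components. Added peaks covered 40.3 Mb. Shared peaks covered 39.96 Mb, of which 26.6 Mb lay inside separate regions and 13.4 Mb ran beyond their edges. New regions thus made up most of the added sequence and wider calls at known regions the rest, with 66.9% of SIT bases outside separate regions. SIT peaks that met both separate lists were 5281, those that met the left alone 4400 and those that met the right alone 5059. Of the shared SIT peaks 1013 (6.87%) joined 2 or more separate regions.

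Added peaks were narrower than shared peaks. Their median width was 1598 bp (quartiles 1182 and 2074) against 2294.5 bp (1670 and 3194), a ratio of 0.696 (95% interval 0.688 to 0.705). SIT peaks that met both separate lists were widest, with a median of 2893 bp, and those that met only the left (2080 bp) or only the right (2014 bp) lay between. In deciles of the SIT list by width, the added share was 79.1%, 80.5% and 79.6% in the 3 narrowest and 17.4% in the widest. Separate regions without a SIT peak were narrower too, at a median of 1574 bp against 1833 bp for those in SIT. A wider interval also meets another list more often by its length alone, and that part of the relation was not tested. With the SIT list reduced to its 19832 widest peaks (1781 bp or more), as many as there were separate regions, 47.4% were still added.

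**Figure D2:**
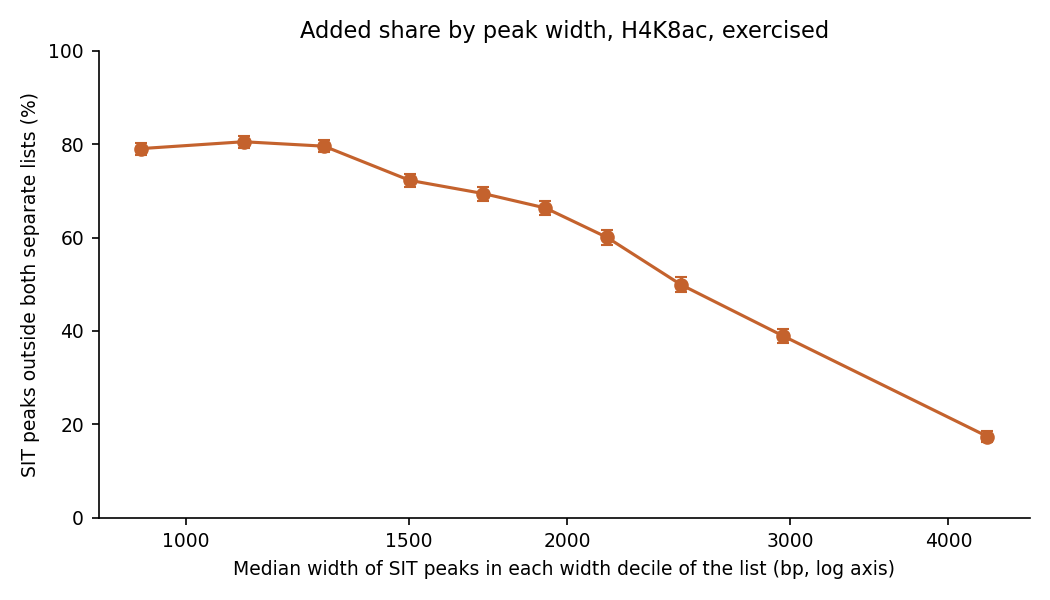
Points give the share of SIT peaks outside both separate lists (vertical axis, percent, with 95% Wilson intervals) for each width decile of the SIT list against the median width of that decile (horizontal axis, bp, log scale). The share stays near 80% over the 3 narrowest deciles and falls to 17.4% in the widest, whose median width is 4294 bp.

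The widest added peaks show that the addition was not confined to short calls. The widest was 10334 bp at chr16:78096612-78106945, a distal intergenic stretch 147591 bp from the start site of E330011O21Rik, and was met by 2 of 3 sedentary H4K8ac lists. The next was 9569 bp at chr7:73528431-73537999 over a promoter of Chd2, which encodes a chromatin remodeller, and it was met by all 3 sedentary lists. Chd2 had 9 SIT peaks, 6 of them added, against 2 left and 2 right peaks. The third, 8908 bp at chr14:80235928-80244835, was distal to Olfm4, a secreted glycoprotein gene, and was again met by all 3 sedentary lists.

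By annotation, the added peaks held fewer promoters and more introns and distal sequence. Promoters, which the authors set at 3 kb on either side of a start site, were 22.0% of added peaks (5144) and 27.6% of shared peaks (4072), a difference of -5.64 points (interval -6.54 to -4.74). Introns were 37.1% of added and 33.5% of shared peaks (3.56 points), and distal intergenic peaks 30.4% and 26.7% (3.66 points). Exons were lower among added peaks, at 7.39% against 8.64%. For 5' UTR, 3' UTR and downstream peaks the interval of the difference included 0. Added promoter peaks covered 8.76 Mb and added distal intergenic peaks 12.3 Mb. Separate peaks without a SIT peak differed in the same direction for promoters and introns. Promoters were 19.2% of them against 26.8% of those in SIT in the left list, and 21.9% against 27.8% in the right. Introns were 47.8% against 35.3% and 44.9% against 34.6%. Distal intergenic peaks went the other way, at 22.1% against 26.9% and 23.4% against 27.6%.

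**Figure D3:**
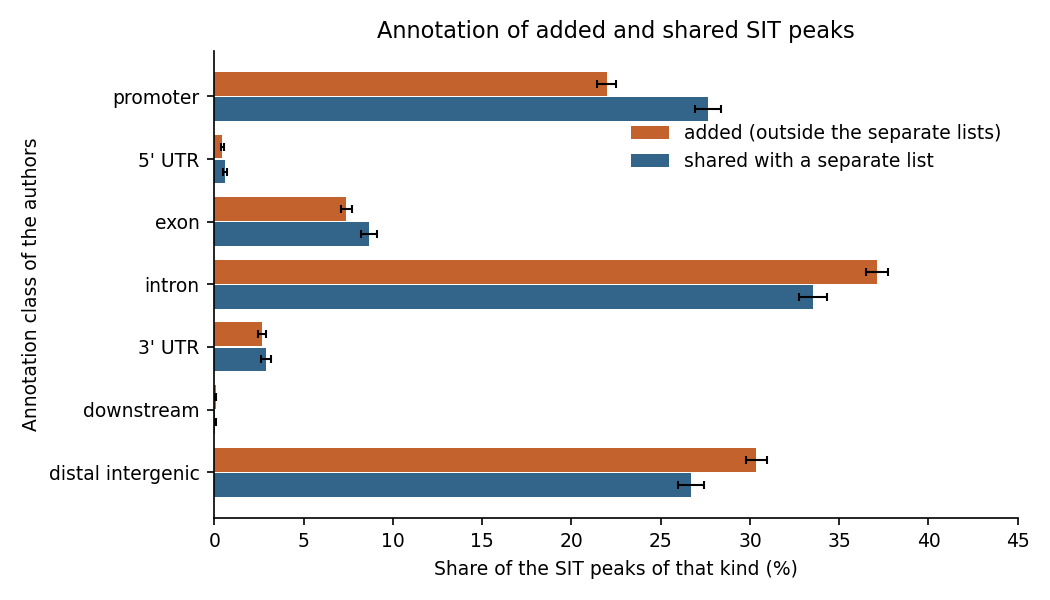
Bars give the share of added and of shared SIT peaks (horizontal axis, percent, starting at 0) in each annotation class of the authors, with 95% Wilson intervals. Promoters make up 22.0% of added and 27.6% of shared peaks, while introns and distal intergenic peaks make up a larger part of the added ones.

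The promoter difference sat at the start site itself. Of the 5592 SIT peaks that lay over an annotated start site 50.8% were added. From 1 to 1000 bp away the share was 63.3%, and from there to 3000 bp it was 63.9%, so that promoter peaks beside the start site were added as often as the 62.5% of peaks farther out, up to 10000 bp. Beyond 100000 bp it was 66.4%, the highest of the 7 distance groups. The median distance to a start site was 23890.5 bp for added and 18365 bp for shared peaks. Among peaks off the start site, 55.6% of added and 56.1% of shared peaks lay downstream of it. By width, the promoter share was lower among added peaks in each of the 10 width deciles, by -2.72 to -9.96 points.

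Base composition differed little between added and shared peaks. The median GC content was 43.5% in added and 45.1% in shared peaks, with 9.78 and 11.6 CpG per kb. Among promoter peaks GC content was 49.3% and 48.7%, and CpG 22.1 and 21.3 per kb, so the promoter calls of the 2 kinds were near each other and the difference lay outside promoters (8.50 and 9.97 CpG per kb). In the table of 32851 RefSeq windows, 3472 met a SIT peak alone, 2538 a SIT and a separate peak, and 616 a separate peak alone. Windows with at least 10 CpG were 74.7% of the first, 67.4% of the second, 60.7% of the third and 36.6% of the 26225 windows that met none. The start sites reached by SIT alone, among them those of Emx1 and Fosb above, were thus CpG-rich in a larger part than those reached by both isolations.

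The sedentary lists, which took no part in the split, showed where else the added peaks were called. Of added peaks 30.0% (7020) met a sedentary SIT peak against 66.0% of shared peaks, a difference of -36.0 points (interval -37.0 to -35.0). In the narrower part of the SIT list, up to its median width of 1819 bp, the difference was -23.7 points, and in the wider part -33.9 points. Sedentary separate lists, which are longer than the exercised ones, met 51.2% of added and 88.8% of shared peaks. Any of the 3 sedentary lists met 59.7% and 92.7%. These separate lists together cover 93.4 Mb and the sedentary SIT list 46.4 Mb. Most added peaks were thus called as H4K8ac peaks in mice without a wheel, more of them in the longer separate lists than in SIT.

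**Figure D4:**
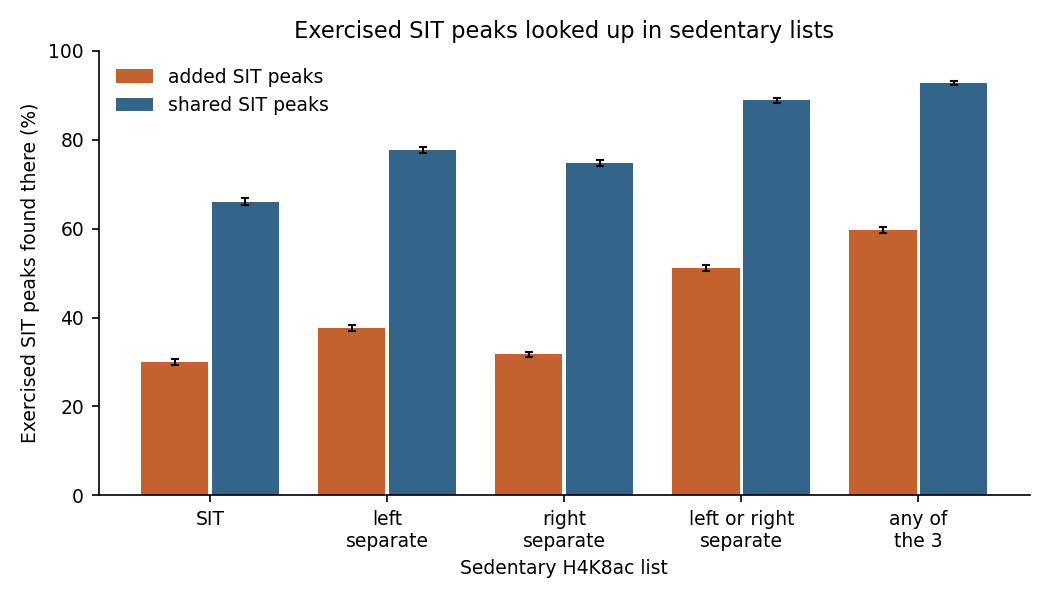
Bars give the share of added and of shared exercised SIT peaks (vertical axis, percent, from 0) that met a peak of each sedentary H4K8ac list (horizontal axis), with 95% Wilson intervals. Added peaks are met less often in every sedentary list, from 30.0% against 66.0% in SIT to 59.7% against 92.7% in any of the 3.

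The number of sedentary lists that met a peak followed its width. The 9429 added peaks met by no sedentary list had a median width of 1376 bp, those met by 1 list 1596 bp, by 2 lists 1825 bp and by 3 lists 2101.5 bp. Promoters were 20.1% of those met by none, 22.5% by 1 list, 24.9% by 2 and 22.5% by 3. Among added promoter peaks 56.6% met a sedentary separate peak, against 47.9% of added intron peaks and 51.0% of added distal peaks. Exercised H3K27me3 peaks, the repressive mark, met 0.945% of added and 0.556% of shared peaks, so both kinds lay almost wholly outside that mark. Of the 5021 separate regions missing from SIT, 52.3% were met by a sedentary separate peak and 28.7% by sedentary SIT, near the 51.2% and 30.0% of added peaks.

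The other pairs of lists were split in the same way for comparison. Of sedentary H4K8ac SIT peaks 36.2% were added, where the SIT list was shorter than the separate regions (30358 peaks against 43772 regions). Of exercised H3K27me3 SIT peaks 42.3% were added, and of sedentary H3K27me3 SIT peaks 2.55%. The added share was largest in the exercised H4K8ac pair, which also had the most SIT peaks per separate region, 1.92. That ratio was 0.694 in sedentary H4K8ac, 1.36 in exercised H3K27me3 and 0.463 in sedentary H3K27me3, so the added share followed the ratio of list lengths across the 4 pairs. Added peaks were narrower and held fewer promoters in all 4 pairs, with promoter differences of -5.64, -7.02, -10.8 and -15.5 points, in the same order.

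At the level of genes, most added peaks fell at genes that the separate lists already named. Of added peaks 17476 (74.7%) were assigned to such a gene and 5871 (25.1%) to a gene that no separate peak named. The 3 lists named 11328 genes. SIT and separate lists both named 6598 of them, SIT alone 4141 (36.6% of the 11328, the background for the lists below) and the separate lists alone 589. Genes with 1 SIT peak made up 73.05% of the genes of SIT alone and 30.6% of the genes of both. With at least 2 SIT peaks asked for, 1116 genes were in SIT alone, and with the SIT list reduced to its 19832 widest peaks 1799 were.

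Counted by promoter peaks, SIT named 6903 genes and the separate lists 4046, with 3443 in common. SIT alone gave 3460 genes a promoter peak, 46.1% of the 7506 with one in any list, and 954 of these had a separate peak elsewhere than in the promoter. Genes of SIT alone were shorter, with a median length of 21335 bp against 33215 bp for genes of both, and the same part of them coded for protein (85.6% and 85.5%). Genes of the separate lists alone were shorter still, with a median of 17600 bp. In 70 genes of SIT alone (1.69%) a SIT peak overlapped a separate peak that had been assigned to another gene. Of the 589 genes of the separate lists alone 68 (11.5%) were of that kind. Sedentary separate lists named 69.2% of the genes of SIT alone and 96.1% of the genes of both, and 986 genes of SIT alone (23.8%) had no peak in any sedentary list. Genes of the separate lists alone were near those of SIT alone here, at 66.0% and 26.0%.

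The 5 genes with the most added peaks were named by all 3 lists, and 4 of them are very long genes expressed in neurons. Celf2, an RNA-binding regulator of splicing, had 100 SIT peaks, 56 of them added, with 40 left and 51 right peaks. Macrod2, an ADP-ribose hydrolase gene, had 65 SIT peaks with 45 added, against 20 left and 15 right. Magi2, a synaptic scaffold, had 70 with 44 added, against 24 and 20. These 3 genes are 969870 bp (Celf2), 1997658 bp (Macrod2) and 1477757 bp (Magi2) long. Part of the added peaks assigned to Celf2 lay outside it, since the gene ends at 7509563 and they reached 8347421. Ptprd, a receptor phosphatase of synapse formation, had 61 with 42 added, with 15 left and 17 right. The fifth, 1700019E08Rik, is a gene of 1843 bp to which 60 SIT peaks were assigned, 36 of them added. By summed width of SIT peaks the leading genes of both isolations were Celf2 (231402 bp), 5730522E02Rik (202109 bp), Anks1b (179235 bp), Tcf4 (175386 bp) and St6galnac3 (164424 bp). Added peaks took 100771 bp of the width at Celf2 and 19468 bp at Tcf4, a transcription factor of neuronal development. Tcf4 had 49 SIT peaks with 14 added, 41 left and 48 right, and its left peaks covered 184241 bp and its right peaks 122867 bp.

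Genes named by SIT alone led with a developmental regulator. Pou3f3, a POU-domain transcription factor of upper-layer and hippocampal neurons, had 3 SIT peaks over 23459 bp and none in the left or right list. Its promoter peak alone spanned 18434 bp at chr1:42678030-42696463, but that peak overlapped a separate peak given to another gene, so the region was not new. The other 2 Pou3f3 peaks, 2179 and 2846 bp in its 3' UTR, were added. Eya1, a transcription cofactor with phosphatase activity, had 9 SIT peaks over 16614 bp, all added, and sedentary lists gave it 9 SIT, 6 left and 2 right peaks. Tmem64, a membrane protein gene, likewise had 9 added peaks (16829 bp) with 4, 5 and 3 in the sedentary lists. Gm10745 had 7 added peaks and the connexin gene Gjb5 had 8. All those of Gm10745 and most of those of Tmem64 were distal intergenic. The Gjb5 peaks all lay upstream, the nearest at -84254 bp and the farthest at -281265 bp from its start site. Eya1, Tmem64, Gm10745 and Gjb5 each had peaks in every sedentary list, so their absence from the exercised separate lists was not shared by the sedentary ones.

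The widest promoter peaks of genes in SIT alone, after Pou3f3, lay at Ubxn10 (5959 bp), Clca3a2 (5364 bp), C1qtnf9 (5029 bp) and Stard5 (4880 bp). Ubxn10 encodes an adaptor of cilia assembly, C1qtnf9 a secreted C1q-family protein and Stard5 a sterol-binding protein. The Stard5 peak at chr7:83630734-83635613 belonged to the only one of these 4 genes with 0 peaks in each of the 3 sedentary lists. In the other direction, the separate lists alone named Lyl1, a haematopoietic transcription factor gene, with 1 left and 2 right peaks. Gm5622 had 3 right peaks, and 1700001G11Rik 2 left and 1 right. Mir6937 had 1 in each and Pgpep1l 1 left and 2 right. Of the 589 genes of this kind 59 were in left and right, and 509 had a single peak.

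General markers of excitatory neurons, the main tagged cells, were already in the short lists. All 11 excitatory neuron markers with a peak, of 12, were in SIT and a separate list, and none was in SIT alone, against 36.6% of all named genes. Among them Rbfox3, the NeuN gene, had 27 SIT peaks (11 added), 13 left and 5 right. Neurod2 had 7 SIT peaks with 2 added, 2 left and 4 right. The vesicular glutamate transporter gene Slc17a7 had 1 SIT peak, shared, 0 left and 1 right. Emx1 had 3 SIT peaks with 1 added, 1 left and 2 right, and 20 of the 64 SIT peaks of the list (31.25%) were added, against 61.3% of all SIT peaks.

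**Figure D5:**
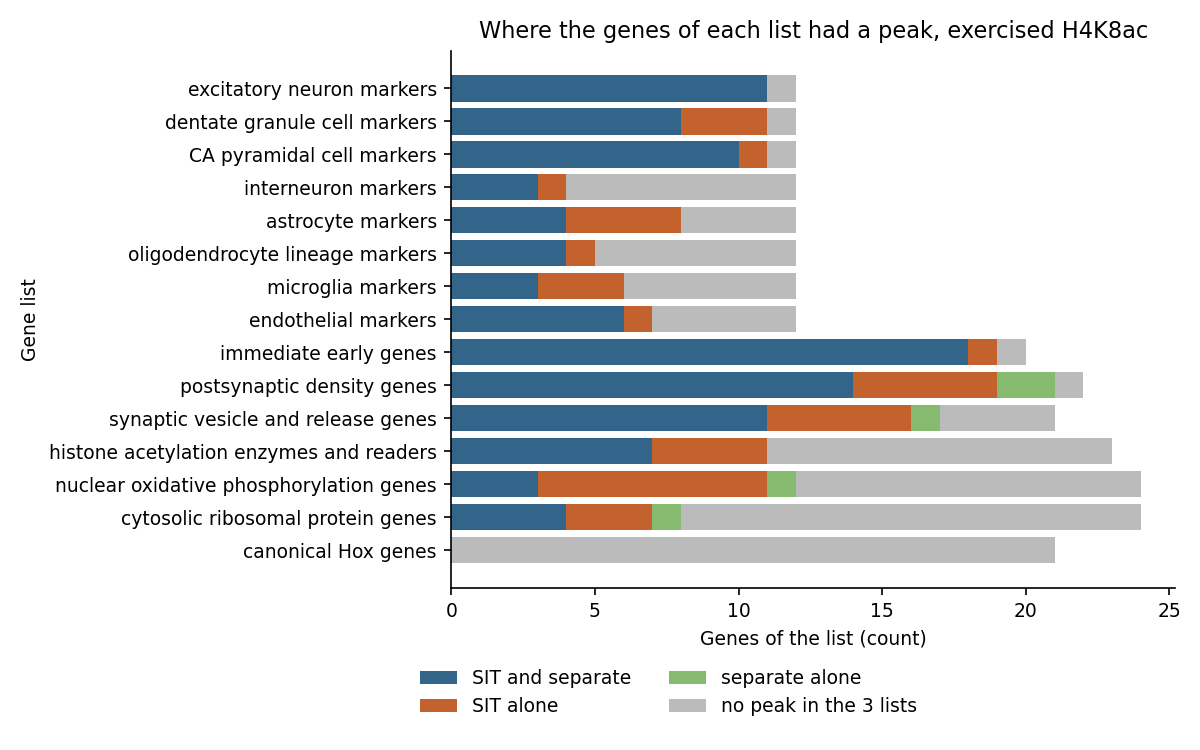
Bars give, for each of 15 gene lists (vertical axis), the number of genes (horizontal axis, count from 0) with a peak in SIT and a separate list, in SIT alone, in a separate list alone or in none of the 3. Excitatory neuron markers have 11 of 12 genes in both and none in SIT alone, oxidative phosphorylation genes have 3 in both and 8 in SIT alone, and no Hox gene has a peak.

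Markers of hippocampal subfields were set against all named genes, of which 6598 of 11328 were in both isolations and 36.6% in SIT alone. Of 12 dentate granule cell markers 8 were in both and 3 in SIT alone. The latter were Prox1, the transcription factor that defines granule cells, with 3 added peaks of 980, 1074 and 2138 bp off its promoter, Trpc6, a cation channel, with 2, and Plk5, a polo-like kinase family gene, with 1. In sedentary mice the SIT list gave Prox1 1 peak and each separate list 3. In all 61 of 86 SIT peaks of the list (70.9%) were added. By added width the list was led by Stxbp6 (11 of 13 peaks added), Glis3 (11 of 15), Pdzd2 (9 of 12) and Bcl11b (6 of 14). Of 12 CA pyramidal cell markers 10 were in both, and Wfs1, an endoplasmic reticulum protein gene of CA1, was in SIT alone with 1 peak of 1721 bp. Of the SIT peaks of this list 47 of 76 (61.8%) were added, against 61.3% of all SIT peaks. Added width was largest at Grik4 (13 of 19 peaks added), a kainate receptor subunit of CA3, then Etv1 (12 of 18), Zbtb20 (10 of 19) and Man1a (7 of 8). In the right list Zbtb20 had 12 peaks and in the left 4.

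Markers of other cell types were also listed, and their part in the added peaks was not tested. Of 12 interneuron markers 3 were in both, 8 in none and Gad1, the GABA-synthesising enzyme, in SIT alone with 2 peaks. The neuropeptide gene Npy had 5 SIT peaks (3 added), 0 left and 4 right. Dlx2, a homeobox gene of the interneuron lineage, had 3 SIT peaks (1 added), 1 left and 3 right. The interneuron genes Gad2, Slc32a1, Pvalb and Vip were at 0 in the 3 lists. Astrocyte markers had 4 of 12 in both and 4 in SIT alone, namely Aldh1l1, Slc1a3, Fgfr3 and Glul. Slc1a3, a glial glutamate transporter, had 3 added peaks, and Slc1a2 and Slc4a4 had 10 and 9 SIT peaks with 5 added in each. Aqp4 had 7 SIT peaks (3 added), 5 left and 4 right, while Gfap was at 0. Each of the 4 astrocyte markers in SIT alone rested on 1 to 3 peaks.

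Microglia markers had 3 of 12 in both and 3 in SIT alone, among them the complement genes C1qa (2 peaks) and C1qb (1). P2ry12 had 4 SIT peaks, 2 left and 1 right, and P2ry13 3 SIT peaks, all added, and 1 left. Cx3cr1, Tmem119, Aif1 and Trem2 were at 0. Oligodendrocyte lineage markers had 4 of 12 in both, with Mbp, a myelin gene, at 16 SIT (3 added), 2 left and 10 right peaks. Mog had 2 SIT peaks (1 added), Cspg4 3 (2 added), and Cnp was in SIT alone with 1 peak, while Olig1, Olig2 and Sox10 were at 0. Endothelial markers had 6 of 12 in both, with Vwf in SIT alone. The vascular cadherin gene Cdh5 had 5 SIT peaks, all added, 0 left and 1 right. Emcn had 12 SIT peaks (5 added), 7 left and 6 right, and Egfl7 had 3 SIT peaks (2 added), 1 left and 0 right. Over these 5 lists the SIT list named 30 of 60 genes, the left 16 and the right 14, so markers of cells other than excitatory neurons were found in each list. Of their 111 SIT peaks 60 (54.1%) were added, and of the 30 genes listed 10 (33.3%) were in SIT alone, beside 36.6% of all named genes.

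Immediate early genes were nearly all in both isolations, and 48 of their 98 SIT peaks (49.0%) were added, against 61.3% of all SIT peaks. Of 20 genes 18 were in both, 1 in none, and Dusp1, a phosphatase that turns off MAP kinases, in SIT alone with 4 added peaks, 2 of them promoter peaks. The genes of this list with the most added width were Nr4a3, Bdnf and Egr3. Nr4a3, an orphan nuclear receptor gene, had 19 SIT peaks with 12 added, 6 left and 8 right. Bdnf, the neurotrophin gene, had 19 with 9 added, 9 left and 6 right, and 6 SIT promoter peaks beside 4 left and 3 right. Egr3 had 10 with 5 added, 4 left and 4 right. Of the 16 genes of this list with a promoter peak 8 had one in both isolations, 5 in SIT alone and 3 in a separate list alone, beside 46.1% in SIT alone and 603 of 7506 in a separate list alone over all genes. Arc, the cytoskeletal activity gene, had 1 SIT peak off its promoter, 2 left and 3 right peaks, with 2 promoter peaks in the right list, and Fos had 2 SIT and 2 left peaks, none added.

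Postsynaptic density genes held the most added peaks of the 15 lists, at about the share of the whole SIT list. Of 22 postsynaptic density genes 14 were in both and 5 in SIT alone (23.8% of 21 listed, beside 36.6% of all named genes). Those 5 were Dlg3, Dlg4, Shank1, Nlgn2 and Nlgn3, each with 1 peak. Of the SIT peaks of the list 145 of 233 (62.2%) were added. Gria1, an AMPA receptor subunit, had 36 SIT peaks with 27 added, 10 left and 9 right. Nlgn1, a postsynaptic adhesion protein, had 36 with 24 added, 10 left and 8 right. Gria2 had 39 with 22 added, 20 left and 18 right. Dlg2, a scaffold related to Dlg4, had 38 with 23 added, 22 left and 10 right. In each of these 4 genes SIT held more peaks than the left and right lists together. Gria3, another AMPA receptor subunit, went the other way, with 1 right peak of 1840 bp on X and none in SIT or left.

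Of 21 synaptic vesicle and release genes 11 were in both and 5 in SIT alone (29.4% of 17 listed, beside 36.6% of all named genes). Among the latter 5 were Syn2 with 2 peaks and Vamp1, Cplx1 and Unc13a with 1 each, genes of vesicle tethering, fusion and priming. Of the SIT peaks of the list 52 of 97 (53.6%) were added, against 61.3% of all SIT peaks. Rims1, an active zone scaffold, had 20 SIT peaks with 13 added, 7 left and 9 right. Syt1, the calcium sensor of release, had 35 with 14 added, 23 left and 21 right, so that a larger part of it was in the short lists. Pclo, another active zone scaffold, had 12 SIT peaks with 10 added, 2 left and 2 right. Cplx2, a regulator of vesicle fusion, had 8 with 5 added, 3 left and 3 right. Syn1, on X, had 1 right promoter peak of 1543 bp and none in SIT or left.

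Enzymes and readers of histone acetylation were in both isolations in 7 of 23 cases and in SIT alone in 4 (36.4% of 11 listed, near the 36.6% of all genes). Those 4 were the acetyltransferases Kat5, Kat6a and Kat8 and the bromodomain gene Brd2, with 1 peak each, over the promoter in all but Kat6a. Hdac9, a class IIa deacetylase, had 40 SIT peaks with 22 added, 14 left and 14 right. Kat6b had 10 with 7 added, Hdac4 7 with 6 added and Hdac7 4 with 3 added. Kat5 lies on chromosome 19, where the left list nearly lacked peaks.

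Among genes of basic cell function, oxidative phosphorylation and ribosomal protein genes were looked up. Of 24 nuclear oxidative phosphorylation genes 3 were in both, 8 in SIT alone (66.7% of 12 listed, beside 36.6% of all named genes), 12 in none, and Uqcrc2 in the right list alone. Among the 8 were Ndufa4 with 4 added peaks off its promoter, and Ndufb8, Ndufs3, Sdhb, Cox5b, Cox6c and Atp5b with 1 each. Widths of these single peaks ran from 771 bp at Cox5b to 2225 bp at Ndufb8, and Ndufb8 is on chromosome 19. Ndufa10 had 4 SIT peaks with 3 added and 1 left. Of 24 cytosolic ribosomal protein genes 4 were in both, 3 in SIT alone (37.5% of 8 listed) and 16 in none. The sedentary separate lists named 13 of the 24 genes in each of these lists. Rpl19 and Rpl32 were in SIT alone with 1 added promoter peak each. Rpl3 had 1 left promoter peak and none in SIT, and Rps24 had 15 SIT peaks, 5 of them added, 4 left and 9 right. None of 21 canonical Hox genes, silent in forebrain, had a peak in any of the 3 lists. The oxidative phosphorylation list thus had the largest part in SIT alone of the 14 lists with a peak, on 12 listed genes.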

How the data were processed

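The labels divide 60 CUT&RUN samples of tagged hippocampal nuclei into 18 groups by antibody (H4K8ac, H3K27me3 or IgG), condition and isolation. Per the paper's methods and the submitters' processing notes, the authors checked reads with FastQC 0.11.9, aligned them with Bowtie2 2.4.1 to mm10 (GRCm38), called peaks with SEACR (stringent, threshold 0.01) and annotated them with ChIPseeker 1.8.6, counting as promoter what lies within 3 kb of a start site. Symbols came from biomaRt. Exercised H4K8ac libraries with a high false discovery rate were left out upstream, more from separate isolation than from SIT, and how the remaining libraries were combined is not given in the sources used here. Per the file headers, the deposited lists give each peak's start, end, width, annotation class, nearest transcript, distance to its start site and symbol. They hold no counts, and beyond a stated minimum per library the depth of a list is unknown here.

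Left and right separate peaks were merged where they overlapped, and SIT peaks were split by an overlap of at least 1 bp. A symbol on 1 or more peaks put its gene on a list. Shares have 95% Wilson intervals, differences Newcombe intervals and medians order-statistic intervals, for counting error only. There is no test, since each list is 1 unit. GENCODE M21 (GRCm38) held 99.0% of the 18029 transcripts named in the 3 lists. All 32851 RefSeq promoter windows had the sequence of the GRCm38.p6 genome at their coordinates. The overlap code was tested on simulated data, where it equalled a count of single bases in all 20 random sets.

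The lists compared, the gene lists and the rule for named genes were chosen with earlier results of these data known. Named genes were, for genes in SIT alone, in both and in the separate lists alone, the 5 with the largest summed peak width. Further ones were the 5 genes of SIT alone with the widest promoter peak, the 5 genes with most added peaks, the genes of the 3 widest added peaks, and in each gene list up to 4 genes with the most added width and those with a separate peak alone. Genes named beside these, and the promoters whose sequence is shown, were chosen after their values were seen. The processing was varied by the overlap asked for, the separate lists used, the length of the SIT list, the chromosomes, the promoter definition, peak width and the peaks that list a gene. Variations by the midpoint of a SIT peak and without chromosomes 19 and X were added after seeing the data. IgG samples are not analysed here, and some genes of the lists are counted but not reported here by name. Software was pandas 2.3.3, numpy 2.4.6, scipy 1.17.1 and matplotlib 3.10.9 under Python 3.11.15.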

Additional observations from a re-analysis of the deposited data

How the results depend on the processing

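The 3 results with a direction (promoter difference, width ratio and sedentary difference) kept it in each variation run. The added share and the number of genes have none, and the added share fell from above to below 50% with the widest SIT peaks. Of 50 values recomputed, 31 moved beyond the counting interval of the reported value or, for genes, by over 1.5 times. The cause was not tested. The added share of SIT peaks (61.3% as reported) was 70.6% with 50% of a SIT peak asked to be covered, 57.3% with separate intervals widened by 1000 bp, 68.7% by the midpoint of the SIT peak, 74.6% against the left list alone, 72.9% against the right list alone, 86.8% against intervals in both separate lists, 47.4% with the SIT list reduced to its widest peaks, and 66.9% by bases. The promoter difference (-5.64 points) was -6.99 with 50% covered, -4.70 with widened intervals, -7.08 by the midpoint, -6.67 against intervals in both lists, -6.73 with the widest peaks, and -6.77 and -4.36 in the wider and the narrower part of the SIT list. The ratio of median widths (0.696) was 0.766 with 50% covered, 0.724 with widened intervals, 0.729 by the midpoint, 0.673 against the left list, 0.598 against intervals in both lists and 0.807 with the widest peaks. The difference in the share found in sedentary SIT (-36.0 points) was -33.0 with 50% covered, -33.7 with widened intervals, -34.5 by the midpoint, -34.8 against the right list, -43.2 against intervals in both lists, -33.8 with the widest peaks, and -33.9 and -23.7 in the wider and the narrower part of the list. Genes in SIT alone (4141) were 1116 with at least 2 SIT peaks and 1799 with the widest peaks. The other 19 values stayed within those limits. Of these, the 4 with chromosomes 1 to 19 and X alone could not move, since no SIT peak lay elsewhere.

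No paired analysis was possible because each group has 1 list that names no sample and no test was run. The lists give neither the depth nor the signal behind each peak, the methods state a minimum depth for the libraries but not the depth of a list, and the number of libraries behind the left and the right list is not given by the lists. Presence or absence in a list is therefore not a measure of how much acetylation a region had, and list length, peak width and the amount of tissue cannot be told apart from isolation.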

Other observations

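Short motifs of factors active in these cells were looked for in the central 300 bases of each SIT peak, on both strands. The AP-1 letters TGANTCA, the site of Fos and Jun dimers, were in 10.2% of added and 10.3% of shared peaks, and in 10.2% of all SIT peaks. The E-box letters CAGCTG were in 14.8% and 15.6% (15.1% of all), and CAGATG, the form that Neurod factors bind, in 24.1% and 23.5% (23.9% of all). A match to such letters is a description of the sequence and not a binding site.

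Added peaks lay near the separate regions in part. The median distance from an added peak to the nearest separate region was 21564.5 bp (quartiles 5699.75 and 67050), with 6.58% of added peaks within 1000 bp, 34.7% within 10000 bp and 82.6% within 100000 bp. Sequence marked as repeat in the GRCm38.p6 genome made up a mean of 18.5% of the bases of added peaks and 17.5% of shared peaks, and 1.88% of added and 0.739% of shared peaks were more than 50% repeat. H3K27me3 peaks of exercised mice were assigned to 29.9% of the genes of SIT alone and 26.8% of the genes of both. Summed over the SIT, left and right lists of that mark, Prox1 had 54 such peaks, Stxbp6 44 and Spock1 69. The same region can be counted more than once in these sums. H4K8ac peaks were listed at these genes as well.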
